A study of Mus musculus with 4 samples.

Results

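The MTA to MTE repeats, called MT elements here, are retrotransposons of the mammalian apparent LTR retrotransposon (MaLR) group, and their RNA was compared between G3 Terc-/- and WT mouse embryonic stem cells (ESCs). The members were all copies in the table of transposable element (TE) counts whose repeat name started with MTA, MTB, MTC, MTD or MTE, 184949 of 3658072 copies listed and 19 of 1072 repeat names. Of these names, 9 were long terminal repeats (LTRs) with 166425 copies, and 10 were internal parts, whose names end in -int, with 18524 copies. The rule itself reads repeat names and no counts.

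MT elements belong to the ERVL class of endogenous retroviruses but carry no genes for the proteins of a retrovirus, so that they cannot copy themselves without help. Their LTRs hold the promoter and the polyadenylation signal, and MT LTRs are best known in the mouse for driving many transcripts of growing oocytes, among them an oocyte form of Dicer1 that starts in an MTC LTR. MERVL, a relative with its own coding sequence and with MT2_Mm as its LTR, is instead known for transcription in the 2-cell embryo and in the few ESCs of a culture that resemble it. By repeat naming the groups run from the youngest, MTA, to the oldest, MTE.

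Poly(A) RNA was sequenced from ESCs of the C57BL/6 strain grown on feeder cells with serum and leukemia inhibitory factor. The WT line N12 and the G3 Terc-/- line F35, which lacks the RNA component of telomerase and came from blastocysts of intercrossed G2 Terc-/- mice, gave 2 libraries each. Each genotype was 1 line, so a difference between genotypes cannot be told apart from one between lines, and the p-values below measure only the spread between libraries of a line. The question of the comparison is whether shorter telomeres go with other levels of retrotransposon RNA.

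The libraries held between 1805047 and 2104586 TE counts and between 18047995 and 22520017 gene counts. Of the deleted gene, Terc, the WT libraries held 7 and 2 counts and both G3 Terc-/- libraries 0, which allows for at most 3 counts each. Over the member copies, replicates of one line differed beyond sampling noise, at a chi-square per copy of 1.40 (WT) and 1.37 (G3 Terc-/-). All 19 ESC markers of the pluripotency list were measured, and their summed level was 8481 and 8571 CPM (counts scaled to a common total of gene counts) in WT against 10513 and 10957 in G3 Terc-/-. Single markers went both ways, with log2 fold changes from -0.79 (Dppa5a) to 1.81 (Tbx3). At a fold change of 2, 4 were higher and 0 lower, and by edgeR's unadjusted p under 0.05 at any size 14 were higher and 4 lower. The 26 feeder fibroblast markers summed to 661.7 and 469.1 CPM in WT, compared with 845.8 and 674.6 in G3 Terc-/-, and none of them was at 0 in all libraries. Of the 24 feeder markers tested, 2 were higher and 0 were lower at a fold change of 2, and by edgeR's unadjusted p under 0.05 at any size 13 were higher and 1 was lower. Over all genes tested the shares were 4.73% higher and 3.13% lower at the first rule and 25% and 24.8% at the second. In both genotypes the feeder markers were mostly higher in replicate 1, in 23 of 24 for WT and 22 of 24 for G3 Terc-/-. Their part in the results below was not tested. In bulk RNA, a different number of cells of one type and a different amount of RNA per cell cannot be told apart.

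MT elements took a small share of the TE counts in both lines, slightly more in G3 Terc-/- ESCs. They took 3.03% and 3.01% of the TE counts in the WT libraries, compared with 3.24% and 3.19% in the G3 Terc-/- libraries. Both mutant libraries were above both WT libraries, by 0.198 percentage points on average, which is larger than the SD between replicates (0.0160 in WT and 0.0345 in G3 Terc-/-, n = 2 each). With 2 libraries against 2, the two-sided exact permutation test gave p = 0.333, the smallest it can give. Only 10.99% of the member copies had any count, and 6118 copies (3.31%, against 4.81% of all TE copies) reached the minimum of 5 counts over the 4 libraries needed for a test. A further 14212 copies had between 1 and 4 counts.

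None of the 19 names passed the cutoff of a 1.5-fold change in either direction. Counts were summed by name, scaled by the trimmed mean of M-values (TMM) over all TE names and tested with edgeR's quasi-likelihood test, and 0 names were higher and 0 lower at a fold change of 1.5 and an unadjusted p under 0.05. Over all 917 TE names tested, 5.13% were higher and 2.94% lower at these cutoffs. DESeq2 also called 0 MT names in each direction. The 95% intervals of the 13 names without an adjusted call lay between -0.65 and 0.30 on the log2 scale, so for MTEb-int, whose interval reached from -0.65 to 0.02, a fall of 1.5-fold lay within the interval. The log2 fold changes of the MT names lay between -0.32 and 0.35, with a median of 0.01 beside a median of -0.0046 over all TE names. At any size of change, 8 names had an unadjusted p under 0.05, and 6 kept an adjusted p (Benjamini-Hochberg over all names) under 0.05, with 5 higher and 1 lower. Over all TE names, 13.2% were higher and 11.6% lower by that rule. DESeq2 gave 4 MT names higher and 0 lower by its adjusted p. In edgeR the 5 higher became 3 without either WT library, and the 1 lower became 0 without WT replicate 1 and 3 without each of the other libraries. The libraries of the genotypes did not overlap for 9 names that were higher and 6 that were lower in G3 Terc-/-, where 29.3% and 31.3% of all TE names did the same.

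**Figure D1:**
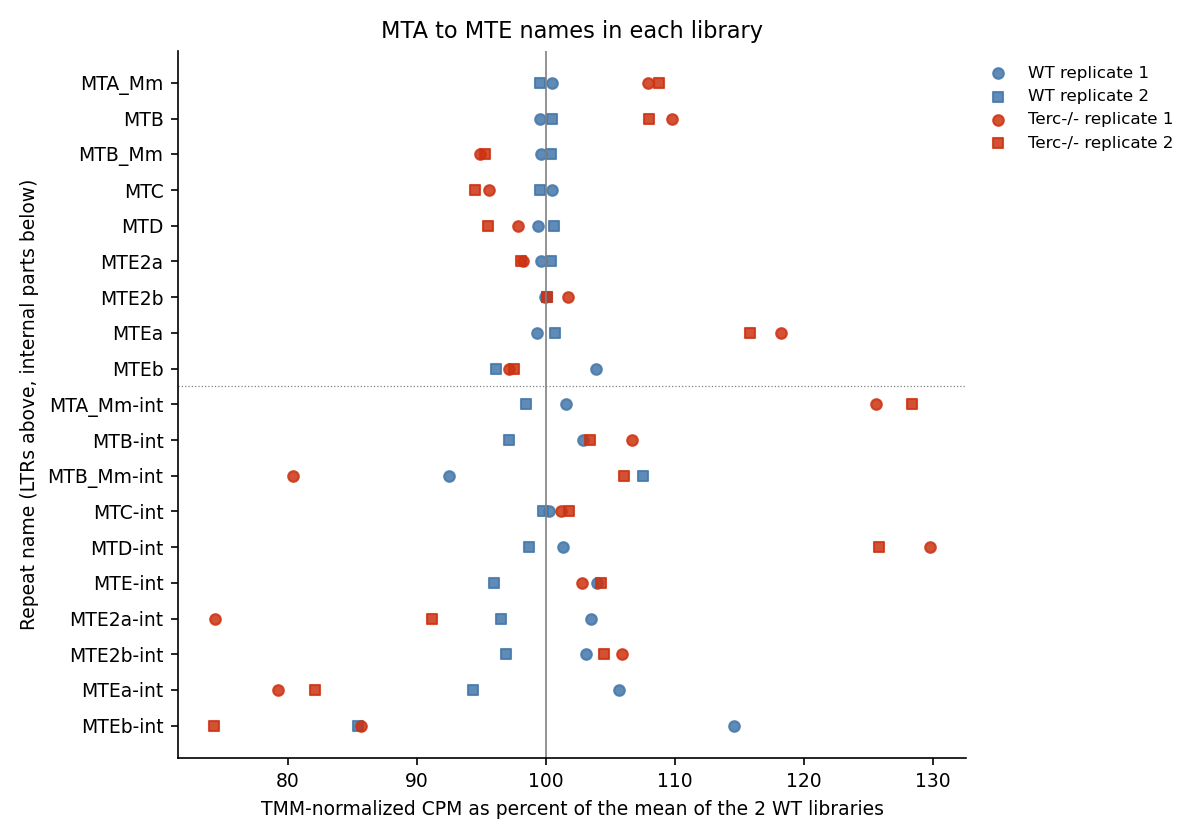
Level of each MT name in the 4 libraries. The horizontal axis is the TMM-normalized CPM of the TE counts as a percent of the mean of the WT libraries, and each point is a library. MTA_Mm-int, MTD-int and MTEa stand to the right in both G3 Terc-/- libraries, while most other LTR names lie close to 100 percent.

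Among the LTR names, the youngest, MTA_Mm, was slightly higher. Its TMM-normalized level was 2906 and 2877 CPM (here counts scaled to a common total of TE counts) in WT against 3120 and 3145 in G3 Terc-/- libraries. The libraries did not overlap, and the change was 1.08-fold (95% interval 1.03 to 1.13, Benjamini-Hochberg adjusted p = 0.0174 by edgeR). With the replicate number as a block the adjusted p of edgeR was 0.0654. Without WT replicate 1 it was 0.118, without WT replicate 2 it was 0.176, and without the 10 copies with the most counts of each name it was 0.215.

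The rises of the LTR names MTEa and MTB rested on few copies. MTEa had 2338 and 2370 CPM in WT against 2783 and 2727 in G3 Terc-/- libraries, a change of 1.17-fold (95% interval 1.11 to 1.23, adjusted p = 0.00063 by edgeR). Copies are numbered within their name in the table, and the MTEa copies 900, 901 and 902, neighbours in that numbering, held 29.7% of the MTEa counts. They had 1099 and 1227 counts in WT against 1984 and 1771 in G3 Terc-/- libraries, and they made up 385.6 of the 400.9 CPM by which MTEa was higher. Without them the log2 ratio of MTEa was 0.01, in place of 0.23. As they were picked for being higher by adjusted p, leaving them out could only lower the ratio. Without the 10 copies with the most counts of each name, a choice by counts alone, the log2 fold change of MTEa was 0.015 (adjusted p = 0.882 by edgeR).

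For MTB the level was 1861 and 1878 CPM in WT against 2052 and 2019 CPM in G3 Terc-/- libraries, a change of 1.09-fold (95% interval 1.03 to 1.15, adjusted p = 0.0247 from edgeR). A single copy, number 292, had 696 and 684 counts in WT against 1243 and 1088 in G3 Terc-/- libraries and held 23.7% of all MTB counts. Without that copy the log2 fold change of MTB was -0.10 (adjusted p = 0.0940 from edgeR), the opposite direction. The adjusted p of MTB was 0.0740 with the replicate number as a block, 0.193 without WT replicate 1, 0.126 without WT replicate 2 and 0.0625 with DESeq2.

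The other LTR names did not pass the adjusted threshold, and all lay within 0.08 of 0 on the log2 scale. MTC, the group from which the oocyte promoter of Dicer1 derives, had 4496 and 4452 CPM in WT against 4275 and 4226 CPM in G3 Terc-/- libraries. Its libraries did not overlap, with a log2 fold change of -0.07 (95% interval -0.13 to -0.01, adjusted p = 0.0747 from edgeR). MTD, the name with the most copies listed (51544), had 7438 and 7530 CPM in WT against 7319 and 7148 CPM in G3 Terc-/- libraries, a log2 fold change of -0.05 (95% interval -0.11 to 0.01). MTB_Mm had 751.3 and 756.8 CPM in WT against 715.3 and 718.4 CPM in the mutant libraries.

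For the old LTRs MTE2a, MTE2b and MTEb the intervals of the log2 fold change were -0.10 to 0.05, -0.07 to 0.09 and -0.14 to 0.06. MTEb was 1389 and 1285 CPM in WT, a spread that held both G3 Terc-/- libraries (1299 and 1304 CPM). The sum of all 9 LTR names was 24761 and 24750 CPM in WT against 25146 and 24842 CPM in G3 Terc-/- libraries, a log2 fold change of 0.02 (95% interval -0.03 to 0.06, adjusted p = 0.564 from edgeR). With the most abundant copy of each name taken out, this value was -0.01.

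The sum of the 10 internal names was higher in G3 Terc-/- ESCs. It was 6098 and 5820 CPM in WT against 6552 and 6647 CPM in G3 Terc-/- libraries, 1.11-fold higher (95% interval 1.06 to 1.16, adjusted p = 0.00445 by edgeR). By the same test the adjusted p was 0.0609 with the replicate number as a block and 0.115 without WT replicate 2. The rise lay in MTA_Mm-int and MTD-int. Added up, the other internal names had log2 ratios of 0.08, -0.06, -0.14 and 0.03 in copies with 1 to 4, 5 to 19, 20 to 99 and at least 100 counts.

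MTA_Mm-int, the internal part of the youngest group, had 4224 and 4192 counts in WT against 5456 and 4833 in G3 Terc-/- libraries. Its level was 2091 and 2026 CPM in WT against 2585 and 2642 CPM in G3 Terc-/-, well apart. The change was 1.27-fold (95% interval 1.20 to 1.34, adjusted p = 4.93e-05 by edgeR) and it kept an adjusted p under 0.05 under every alternative tested.

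MTD-int showed a rise of like size at a lower level. It had 812 and 810 counts in WT against 1087 and 913 in G3 Terc-/- libraries, or 401.9 and 391.4 against 515.0 and 499.2 CPM. The change was 1.28-fold (95% interval 1.17 to 1.40, adjusted p = 0.00213 from edgeR), and it too kept an adjusted p under 0.05 under every alternative tested.

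Of the internal parts of the oldest group, MTE, 1 of 5 passed the adjusted threshold, in the lower direction. MTEa-int fell from 185.1 and 165.3 CPM in WT to 138.8 and 143.8 CPM in G3 Terc-/- libraries, a log2 fold change of -0.31 (95% interval -0.53 to -0.09, adjusted p = 0.0456 from edgeR). That call was lost with DESeq2 (adjusted p = 0.193) and, in edgeR, with the replicate number as a block (adjusted p = 0.0781), without WT replicate 1 (adjusted p = 0.275) and without G3 Terc-/- replicate 1 (adjusted p = 0.110). Without the 10 copies with the most counts of each name its log2 fold change was -0.04.

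MTE2a-int had 357.3 and 333.5 CPM in WT against 256.8 and 314.9 CPM in G3 Terc-/- libraries (edgeR adjusted p = 0.0638), and copy 152 alone held 83.8% of its counts. MTEb-int had 140.1 and 104.4 CPM in WT against 104.7 and 90.8 CPM in G3 Terc-/- libraries, so the genotypes overlapped (adjusted p = 0.157 from edgeR). Neither name passed the adjusted threshold.

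The remaining 5 internal names had no call. MTB-int had 992.4 and 937.5 CPM in WT against 1029 and 997.8 CPM in G3 Terc-/- libraries, and 75.2% of its counts came from copy 395. MTC-int had 864.7 and 860.2 CPM in WT against 872.6 and 878.1 CPM in G3 Terc-/- libraries. For MTE-int, MTE2b-int and MTB_Mm-int the intervals of the log2 fold change were -0.06 to 0.17, -0.15 to 0.30 and -0.47 to 0.25. MTB_Mm-int, with the widest of these intervals, had between 56.4 and 75.4 CPM in a library.

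**Figure D2:**
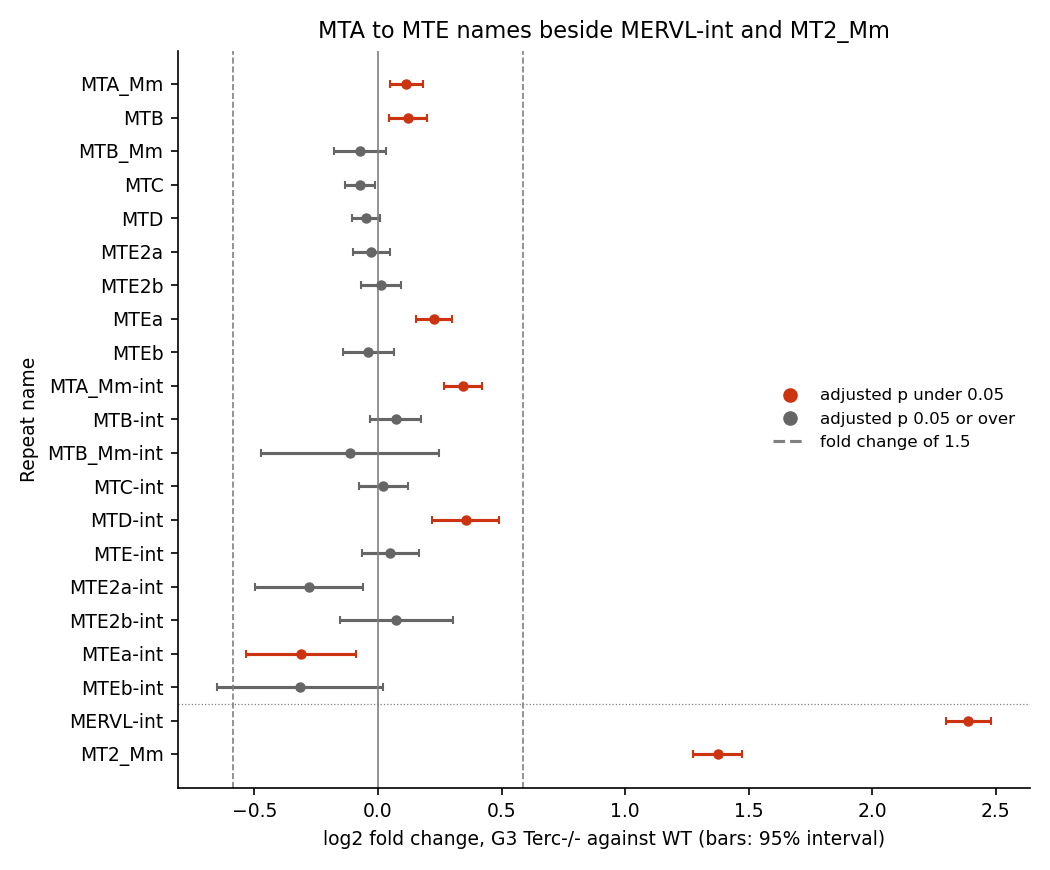
Log2 fold change of each MT name in G3 Terc-/- against WT ESCs with its 95% interval from edgeR, beside MERVL-int and MT2_Mm. Dashed lines mark a fold change of 1.5, red points have an adjusted p under 0.05. The points of all MT names lie between the dashed lines, while MERVL-int is at 2.39 and MT2_Mm at 1.38.

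The ratio of internal to LTR counts within a library needs no scaling. For MTA_Mm its log2 value was -0.47 and -0.51 in WT against -0.27 and -0.25 in G3 Terc-/- libraries, 0.23 higher. For MTD it was -4.21 and -4.27 in WT against -3.83 and -3.84 in G3 Terc-/- libraries, 0.40 higher. For MTEa it moved the other way, from -3.66 and -3.84 in WT to -4.33 and -4.25 in G3 Terc-/- libraries. In these 3 names the genotypes did not overlap, and the exact two-sided permutation test gave p = 0.333, its smallest possible value, for each. The same held for MTC, MTE2a, MTE2b and MTEb, with differences of 0.10, -0.25, 0.06 and -0.27, so the lack of overlap is not particular to these names. In MTB and MTB_Mm the genotypes overlapped.

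The rise of MTA_Mm-int was seen in many of its copies. Of the 237 MTA_Mm-int copies tested singly, 27 (11.4%) were higher and 5 (2.11%) were lower at a fold change of 2 and an unadjusted p under 0.05 in edgeR, where 4.7% of all TE copies tested were higher and 3.87% lower. At the same fold change with an adjusted p under 0.05, 4 were higher and 2 lower. DESeq2 called 10 higher and 3 lower, and edgeR called 16 higher without WT replicate 1 and 11 without either G3 Terc-/- library. The median copy had a log2 fold change of 0.39, and 65.8% of the copies were positive, against 0.02 and 50.5% over all TE copies. Of 1201 tested internal copies of ORR1, the other rodent MaLR group, 159 (13.2%) were higher and 27 (2.25%) lower at the unadjusted cutoffs. An excess of higher copies is thus not particular to MTA_Mm-int.

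The log2 ratio of MTA_Mm-int was above 0 in every class of copies by counts, although most of its rise in CPM lay in the copies with the most counts. Its 459 copies with 1 to 4 counts, too few for a test of any one of them, summed to 168 and 176 counts in WT against 218 and 221 in G3 Terc-/- libraries. In the 34 copies with at least 100 counts the sums were 3144 and 3178 in WT against 4085 and 3644 in G3 Terc-/-, or 1556 and 1536 against 1935 and 1992 CPM. The log2 ratio of mean CPM was 0.41, 0.38, 0.30 and 0.35 from the class with the fewest to that with the most counts per copy, and the genotypes did not overlap in any class. Copy 513, with the most counts of the name (323 and 380 in WT, 410 and 359 in G3 Terc-/-), held 7.87% of them, and without the 10 copies with the most counts of each name the log2 fold change was 0.31.

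MTD-int was higher in each class of copies with fewer than 100 counts. Of its 130 copies tested, 14 (10.8%) were higher and 5 (3.85%) lower at the same cutoffs, and the median log2 fold change was 0.49 with 66.2% positive. The log2 ratio was 0.22, 0.34 and 0.45 in the classes of 1 to 4, 5 to 19 and 20 to 99 counts, without overlap. In the 3 copies with at least 100 counts it was 0.16 and the genotypes overlapped. The copies 2518, 2519, 2520 and 2521 stood next to each other in the numbering, each with an adjusted p under 0.05 by edgeR. They all fell in the class of 20 to 99 counts, and no other MTD-int copy was higher at a fold change of 2 and an adjusted p under 0.05. Together they had 23 and 19 counts in WT against 97 and 121 in G3 Terc-/-, and they made up 45.8 of the 110.4 CPM by which MTD-int was higher. Without them the log2 ratio of MTD-int was 0.22 in place of 0.35, and no test was run without them. As they were picked for being higher by adjusted p, leaving them out could only lower the ratio. Without the 10 copies with the most counts of each name, a choice by counts alone, the log2 fold change was 0.30 (adjusted p = 0.00114 by edgeR).

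MTEa had ratios of both signs over its classes of copies. Its log2 ratio was 0.25 for copies with 1 to 4 counts, 0.01 for 5 to 19, -0.31 for 20 to 99 and 0.47 for at least 100. Of 465 MTEa copies tested, 17 (3.66%) were higher and 24 (5.16%) lower, shares close to those of all TE copies.

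**Figure D3:**
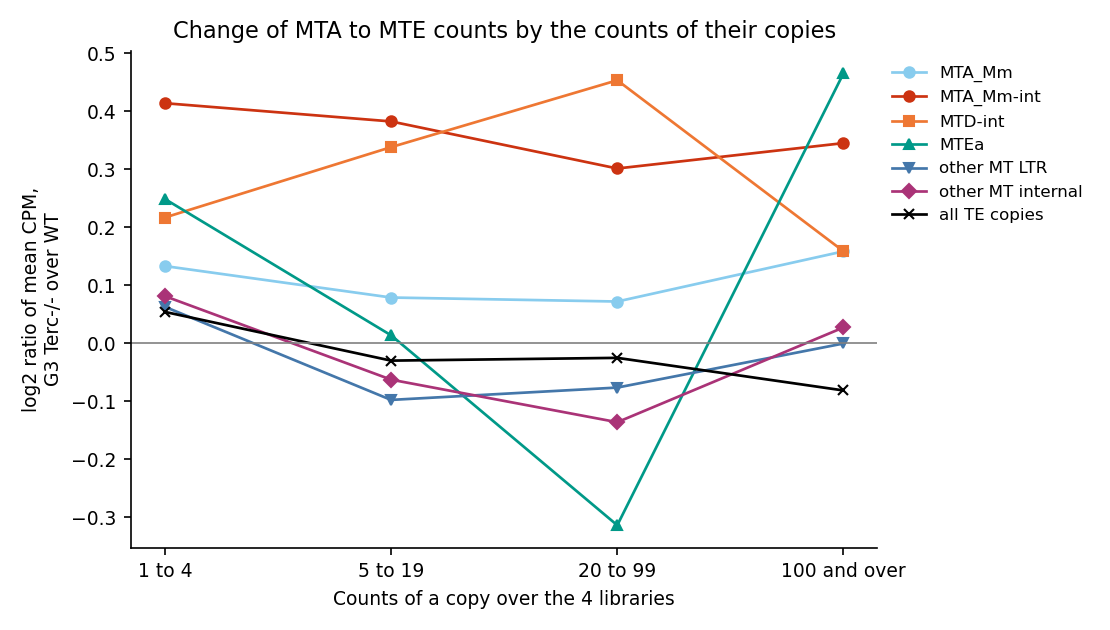
Log2 ratio of mean CPM, G3 Terc-/- over WT, for copies grouped by their counts over the 4 libraries. Lines are repeat names, sums of the other MT names and all TE copies. MTA_Mm-int lies between 0.30 and 0.41 in all classes, MTEa swings from -0.31 to 0.47, and the other MT LTRs stay between -0.10 and 0.06.

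Over all 6118 MT copies tested, about as many copies were higher as lower. At a fold change of 2 and an unadjusted p under 0.05 there were 272 higher (4.45%) and 264 lower (4.32%), near the 4.7% and 3.87% of all TE copies. Leaving out G3 Terc-/- replicate 1 or 2 gave 98 and 113 higher, and 169 were lower without WT replicate 2 and 173 without G3 Terc-/- replicate 2. At a fold change of 2 and an adjusted p under 0.05 there were 30 higher and 29 lower, 0.490% and 0.474%, where 0.634% and 0.366% of all TE copies passed. The median copy had a log2 fold change of 0.03 and 50.5% were positive. Counts in both G3 Terc-/- libraries and none in WT were found for 127 copies, and in both WT libraries and none in G3 Terc-/- for 139. These were 2.08% and 2.27%, against 2.19% and 2.18% of all TE copies.

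Among the single names, MTA_Mm had 37 of 676 copies higher and 22 lower, MTD 62 of 1606 higher and 71 lower, MTC 41 of 1015 higher and 55 lower, and MTE2a 25 of 480 higher and 17 lower. MTB_Mm had 1 of 175 higher and 7 lower. In MTE2a-int 0 of 19 were called in either direction by edgeR, and copy 152, with 613 and 588 counts in WT against 446 and 472 in G3 Terc-/-, had an unadjusted p of 0.0101 and a change under the cutoff by the same test.

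**Figure D4:**
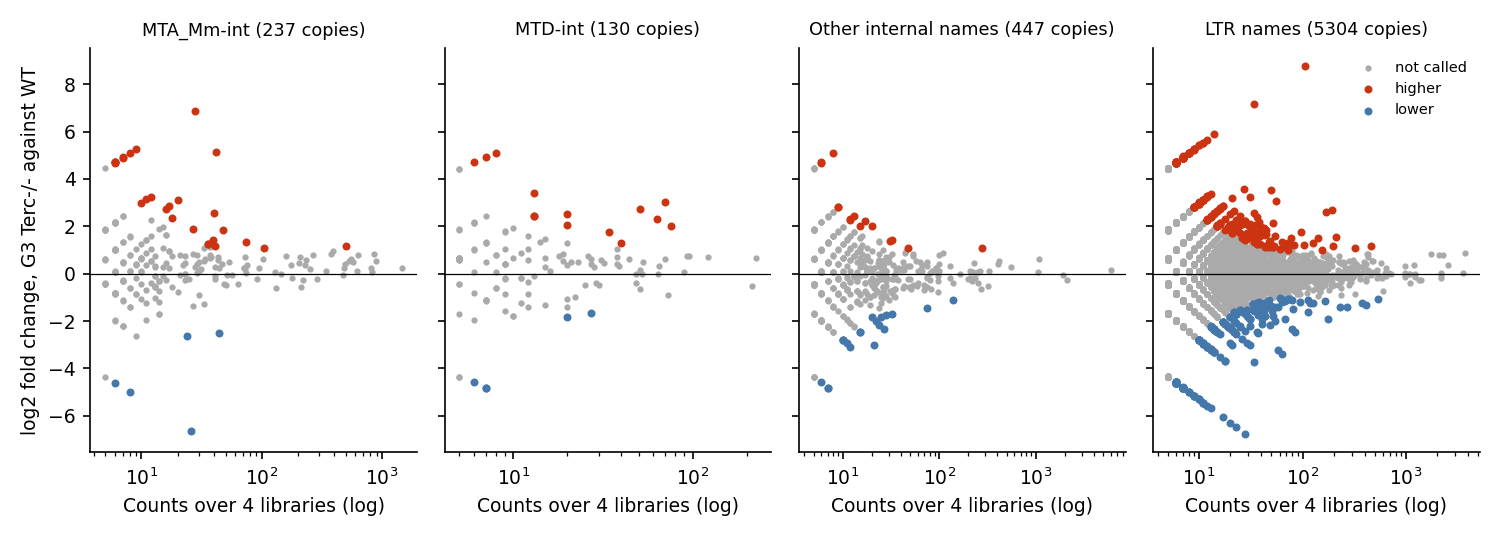
Single MT copies with at least 5 counts, by their counts over the 4 libraries (log axis) and their log2 fold change. Red copies were higher and blue copies lower at a fold change of 2 and an unadjusted p under 0.05. Red outnumbers blue for MTA_Mm-int (27 against 5) and MTD-int (14 against 5), but not for the 5304 LTR copies (216 against 234).

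The copies with the smallest p among those higher came from several names. MTE2a copy 13805 had 0 counts in both WT libraries and 62 and 43 in G3 Terc-/- libraries, at least 37.6-fold higher when WT is set to 3 counts in all (Benjamini-Hochberg adjusted p = 5.71e-13 by edgeR). MTD copies 11766 and 11767, neighbours in number, went from 9 and 18 and from 8 and 17 counts in WT to 109 and 55 and to 94 and 51 counts in G3 Terc-/-. Their log2 fold changes were 2.68 and 2.62, and in both copies G3 Terc-/- replicate 1 was well above replicate 2. With a library left out in turn, the value of copy 11766 lay between 2.21 and 3.24.

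MTA_Mm-int copy 448 had 85 and 78 counts in WT against 168 and 174 in G3 Terc-/- libraries, 2.26-fold higher (adjusted p = 6.05e-07 from edgeR). The next in number, copy 449, had 149 and 172 counts in WT against 256 and 273 in G3 Terc-/-. MTB copy 292 and MTEa copies 900, 901 and 902, described above, had log2 fold changes of 0.86, 0.85, 0.78 and 0.77 and so were under the cutoff of 2 for copies. They complete the 8 copies with the smallest p. Since the table gives no coordinates here, neither the gene nor the position of any copy is given.

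The 8 copies with the smallest p among those lower were all LTR copies, as were 5304 of the 6118 copies tested and 234 of the 264 lower ones. MTEa copy 7932 fell from 143 and 153 counts in WT to 59 and 52 in G3 Terc-/- libraries, and MTD copy 16381 from 71 and 71 to 19 and 16. Their log2 fold changes were -1.31 and -1.91 (adjusted p = 5.38e-07 and 2.27e-06 from edgeR). In MTE2b copy 1014 there were 30 and 29 counts in WT against 4 and 1 in G3 Terc-/-, and MTC copy 11553 had 34 and 39 against 6 and 6. MTD copies 16796 and 20918 and MTEb copies 3867 and 8515 had log2 fold changes between -1.41 and -1.07. For 3 of these copies the neighbour in number was lower too, namely MTD copy 16797 (85 and 71 counts in WT, 47 and 31 in G3 Terc-/-), MTE2b copy 1013 (18 and 14 against 2 and 0) and MTEb copy 8514 (46 and 44 against 15 and 20).

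Copies at 0 in one genotype stood on both sides, and their folds are lower bounds against 3 counts over that genotype. MTE2a copy 5583 had 19 and 15 counts in G3 Terc-/- libraries alone, at least 12.2-fold higher, and MTA_Mm-int copy 1986 had 15 and 13 there alone, at least 10.04-fold higher. MTA_Mm copy 13815 had 17 and 11 counts in WT libraries alone, at least 8.68-fold lower in G3 Terc-/-, and MTA_Mm-int copy 1185 had 11 and 15 in WT alone, at least 8.06-fold lower. MTEa copy 18875 (9 and 14 counts), MTC copy 25210 (11 and 9) and MTE2a copy 13536 (6 and 11) were likewise counted in WT alone. When either G3 Terc-/- library was left out, no copy named here kept an adjusted p under 0.05 in edgeR (the smallest was 0.574 without replicate 1 and 0.607 without replicate 2), although the directions of the called copies were as before.

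Called copies partly sat next to each other in the numbering. Of the 272 higher copies 100 had a neighbour of the next or previous number that was tested, and in 20 that neighbour was higher too. Of the 264 lower copies 122 had a tested neighbour and 32 a lower one. The same counts were not made over all TE copies, so nothing particular to MT copies can be read from them. Whether such neighbours lie in a common transcript was not tested, and they are not counted on as separate observations.

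MERVL, the relative known from the 2-cell embryo, stood far above WT. MERVL-int, the internal part of MERVL, had 680.0 and 659.7 CPM in WT against 3593 and 3421 CPM in G3 Terc-/- libraries, 5.24-fold higher. Of its 772 copies tested, 489 (63.3%) were higher. Many of its copies reached the minimum of 5 counts mainly through the mutant libraries, which raises this share. The 546 copies with 5 to 19 counts summed to 380 and 369 counts in WT against 2563 and 2081 in G3 Terc-/-. MT2_Mm had 543.9 and 529.7 CPM in WT against 1389 and 1398 CPM in G3 Terc-/- libraries. The log2 ratio of the MT LTR sum to MERVL-int with MT2_Mm within a library went from 4.34 and 4.38 in WT to 2.34 and 2.37 in G3 Terc-/-, and that of the MT internal sum from 2.32 and 2.29 to 0.40 and 0.46. For both ratios the exact two-sided permutation test gave p = 0.333, the smallest possible.

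ORR1 is the other rodent MaLR group. Of its LTR names 0 of 14 were higher and 0 lower at a fold change of 1.5, as for the MT LTR names, and of its internal names 4 of 14 tested were higher and 0 lower. The log2 ratio of MT internal to ORR1 internal counts was -0.07 and -0.14 in WT against -0.36 and -0.32 in G3 Terc-/- libraries, lower in both mutant libraries (exact two-sided permutation p = 0.333). For the LTRs that ratio was 0.02 and 0.04 in WT against -0.02 and -0.01 in G3 Terc-/-. Against the MT2 LTRs other than MT2_Mm, the log2 ratio of the MT LTRs was 0.92 and 0.93 in WT against 0.95 and 0.92 in G3 Terc-/-, an overlap (p = 1.00 by the same exact test).

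**Figure D5:**
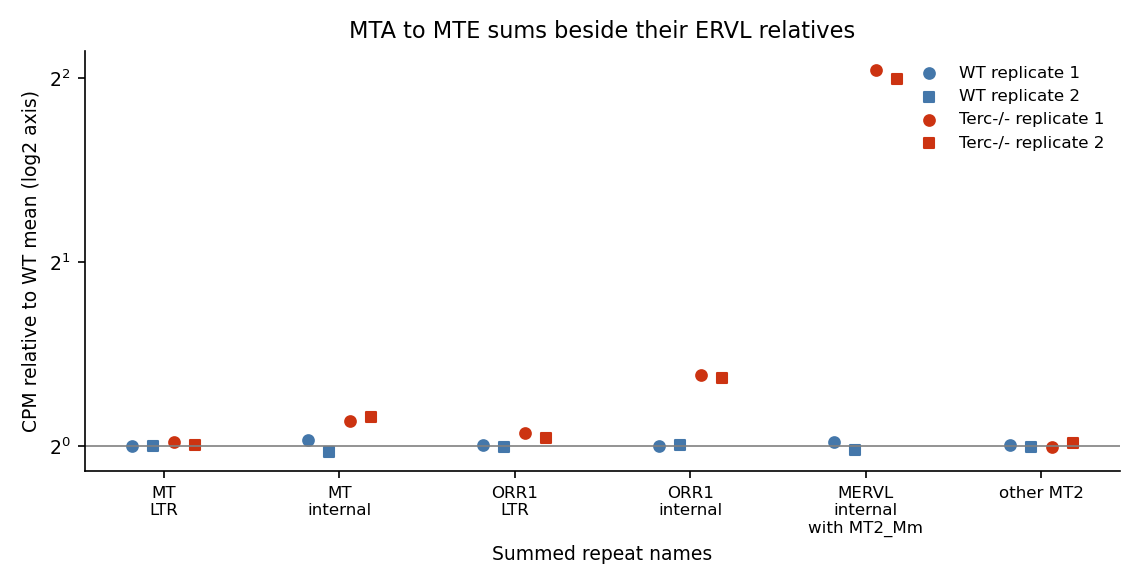
Summed CPM of MT LTRs, MT internal parts and their ERVL relatives in each library, relative to the WT mean on a log2 axis. The points for MERVL internal with MT2_Mm in G3 Terc-/- libraries stand 2.02 log2 units above WT on average, those for ORR1 internal 0.38, those for MT internal 0.15 and those for MT LTR 0.01.

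Genes of 2-cell-like cells, the setting of MERVL, were higher. Of a list of 29 such genes, 26 were found and 19 were tested. At a fold change of 2 and an unadjusted p under 0.05 in edgeR, 17 were higher and 0 lower. Over all genes tested the shares were 4.73% and 3.13%. Genes with few WT counts, such as Zfp352 (0 and 2 in WT, 32 and 25 in G3 Terc-/-), passed the filter only through the mutant libraries. The filter thus raises the 17 of 19, which cannot be set against the shares of all genes. DESeq2 also gave 17 and 0, and 1 gene, Dppa4, was lower at an unadjusted p under 0.05 below that cutoff. The median log2 fold change was 3.03, beside 0.01 over all genes, and the filter bears on it in the same way. Zscan4d, a marker of the 2-cell-like state involved in telomere lengthening, had 18 and 22 counts in WT against 243 and 234 in G3 Terc-/- libraries, and Zscan4a, Zscan4c and Zscan4f had log2 fold changes of 3.62, 3.03 and 2.87. The Zscan4 genes are near-identical, so the split of reads among them is uncertain.

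Oocytes are the setting in which MT LTRs are known to be active, but few oocyte genes were counted often enough to be tested. Of 36 listed genes 9 were tested and 9 were at 0 in all libraries. In edgeR 0 were higher and 1, Nlrp14, was lower at the cutoffs, and at an unadjusted p under 0.05 there were 0 higher and 3 lower. DESeq2 gave 0 higher and 0 lower. Of all genes, 4.73% were higher and 3.13% lower at the cutoffs, and 25% and 24.8% at any size, so little can be read from counts over 9 genes. Ooep, of the maternal complex that lies beneath the oocyte membrane, had 1158 and 1088 counts in WT against 792 and 722 in G3 Terc-/- libraries. Nlrp4f had a log2 fold change of -0.47, and Padi6, another protein of that complex, one of 0.85 (adjusted p = 0.167 from edgeR). Nlrp14 had 16 and 24 counts in WT against 9 and 5 in G3 Terc-/-, and its call was lost without WT replicate 2 or G3 Terc-/- replicate 2. Dicer1, summed over its whole gene so that the oocyte form is not seen apart, had 3727 and 3816 counts in WT against 3758 and 3207 in G3 Terc-/-, a log2 fold change of 0.01 (adjusted p = 0.897 from edgeR).

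Of 41 genes that silence endogenous retroviruses, all were tested. In edgeR as in DESeq2, 2 passed the cutoffs as lower and 0 as higher. At an unadjusted p under 0.05 and any size, 7 were higher and 19 lower in edgeR, which is 17.1% and 46.3% of the list beside 25% and 24.8% of all genes. The shares at the cutoffs over all genes were 4.73% higher and 3.13% lower, beside 0 and 2 of the 41 here. Dnmt3b, a DNA methyltransferase, had 11230 and 11596 counts in WT against 5129 and 4405 in G3 Terc-/- libraries, and Cbx3, which encodes heterochromatin protein HP1 gamma, had 3400 and 3708 against 1427 and 1318. Smarcad1, a chromatin remodeller, and Atrx, which acts with the histone H3.3 chaperone Daxx, had log2 fold changes of -0.96 and -0.72. Cbx3 and Smarcad1 lie on chromosome 6, where 86 of the 691 genes tested (12.4%) were lower at the cutoffs, against 2.68% of the genes elsewhere. Which MT copies lie on that chromosome is not known from the table used here, so its part in the MT values was not tested.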

How the data were processed

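RNA-seq counts of 2 WT and 2 G3 Terc-/- ESC libraries were used, grouped by the labels. The authors deposited raw read counts per gene and per TE copy, without normalization. The submitters' processing notes name Trim Galore, STAR, featureCounts and mm10. Strand setting, handling of multi-mapped reads and the repeat annotation are not given in the sources used here. If counting was unstranded, a host gene's reads can count for a copy within it, and reads mapping to several copies can be lost or shared, which touches young names most.

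Copies were added up within each repeat name. edgeR 4.0.16 (TMM, quasi-likelihood test, a term for genotype alone) was run in R 4.3.3 on all names and genes after filterByExpr, and on all copies with at least 5 counts over the 4 libraries. The cutoffs were those of the study, a fold change of 1.5 for names and 2 for copies and genes at an unadjusted p under 0.05, with Benjamini-Hochberg adjusted p over all features beside them. Of 24116 genes 24061 had a symbol, and their chromosomes, in RefSeq of GRCm38, the same genome as mm10. Sums of gene lists are plain CPM of gene counts, and CPM of repeats are TMM-normalized. Intervals and floors cover the spread in the fit or counting error only.

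In counts simulated for the family comparison (918 names) edgeR recovered 100% of 200 changed names, and in those for copies (175905 copies) 99% of 200, with 2.84% of unchanged copies called. The changed features were all well counted, one low spread was set for all features, and the changes put in were larger than that of any MT name. This recovery therefore does not give the power for small changes or for copies with few counts.

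The text names all member names, the copy with the most counts of a name where it bears on that name, the 8 higher and 8 lower copies with the smallest p, copies at 0 in one genotype, 4 genes per list by smallest p, Terc, Dicer1, MERVL-int and MT2_Mm. The members, lists and rules were chosen with earlier results of these data known, and copies at 0 in one genotype, runs of consecutive copies with an adjusted p under 0.05 and Dppa4 were named after their values were seen. Alternatives were DESeq2 1.42.0, its size factors in edgeR, scaling by gene counts, a replicate block, other filters, adjusted p, the most abundant copies left out and each library left out. Leaving out the 10 most abundant copies or a run of copies was added after seeing the data.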

Additional observations from a re-analysis of the deposited data

How the results depend on the processing

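The calls of MTA_Mm-int and MTD-int and the count of 0 names at a fold change of 1.5 held under every alternative that was tested. No test was run with a run of consecutive copies left out. By adjusted p, the 5 names higher became 3 with the replicate block, 2 without the 10 most abundant copies of each name, and 3 to 5 with a library left out. The 1 name lower became 0 with DESeq2, with its size factors, with gene scaling and with the block, 2 without a filter and without copies over 10000 counts, 3 without the 10 copies, and 0 to 3 with a library left out. Scaling by gene counts moved the median name by 0.06.

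The 272 MT copies higher became 82 with DESeq2, 170 with the block, 118 at 20 counts or more, 30 by adjusted p and 98 to 212 with a library left out, and the 264 lower became 67, 150, 120, 29 and 169 to 183. The 27 MTA_Mm-int copies higher became 10 with DESeq2, 13 at 20 counts or more and 11 to 21 with a library left out, and the 5 lower became 3 with DESeq2 and with the block and 4 to 7 with a library left out. The cause was not tested, other than that the stricter minimum leaves fewer copies. The labels do not say that a replicate number marks a shared batch or day, and 2 pairs are too few to settle whether it does. Deviations of same-numbered libraries correlated at 0.14 over genes, -0.10 over names and 0.04 over member copies, and feeder markers were mostly higher in replicate 1 of both genotypes. With the block, the calls of MTA_Mm, MTB and MTEa-int were lost (adjusted p = 0.0654, 0.0740 and 0.0781 from edgeR), and those of MTA_Mm-int, MTD-int and MTEa were not. With the block the internal sum was at 0.15 (adjusted p = 0.0609 from edgeR), and with a library left out it was 0.11 to 0.18.

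Some log2 fold changes near 0 turned sign when the most abundant copy of a name, or its 10 most abundant copies, were taken out. They became -0.014 and -0.047 for the LTR sum (0.0041 to 0.025 with a library left out), -0.090 and -0.13 for the MTB LTR sum, -0.031 and -0.083 for the MTB internal sum, -0.083 and -0.20 for the MTC internal sum, -0.10 and -0.15 for MTB, -0.046 and -0.13 for MTB-int, -0.094 and -0.21 for MTC-int, -0.022 and -0.045 for MTE2b, and -0.24 and -0.32 for MTE2b-int. With 10 copies out, the MTE LTR sum turned to -0.0082, MTB_Mm-int to 0.073 and MTE2a to 0.0011. Gene scaling turned MTD and the MTD LTR sum to 0.023, MTE2a to 0.045 and MTEb to 0.033. With a library left out MTB_Mm-int ran from -0.31 to 0.082, MTE-int from -0.0090 to 0.10, MTEb from -0.096 to 0.014, MTA_Mm copy 11957 from -0.32 to 0.12, MTB_Mm copy 1161 from -0.021 to 0.25, MTE-int copy 4276 from -0.21 to 0.090, MTEb-int copy 496 from -0.27 to 0.39 and Dicer1 from -0.014 to 0.032, with -0.0034 for Dicer1 without a filter. The cause of these turns was not tested beyond what was left out.

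The MT share differed by 0.0306 percentage points when taken of gene counts. With the most abundant copy of each name out, the change of the log2 ratio to MERVL-int with MT2_Mm was -2.22 for LTRs and -2.02 for internal parts, and that of internal parts to the other MT2 LTRs was 0.19. The oocyte count of 1 lower became 0 with DESeq2 and 0 to 1 with a library left out. With 1 library left in a genotype, it is assumed to vary like the other genotype.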
